A study of Mus musculus with 6 samples.

Results

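The 3 control libraries described here came from SC4 cells, a mouse Schwann cell line that the labels derive from an Nf2-null schwannoma, a tumour of the nerve sheath. They are the 3 samples, of 6 in the series, that received a control siRNA (GE Life Sciences), chosen by that label alone, and all 23366 genes listed for them were used in the counts. Cells were grown in DMEM with fetal bovine serum, transfected with Lipofectamine 2000 and harvested 48 hours later, so the baseline is that of transfected cells. The other 3 samples, treated with a pool of siRNAs against YAP, were not used. The labels name 1 line, do not say whether it is a single clone, and do not say whether the 3 libraries came from separate cultures, so the spread between them may be technical.

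Nf2 encodes merlin, a membrane-linked tumour suppressor, and its loss in Schwann cells gives rise to schwannomas. Schwann cells descend from the neural crest under the transcription factor Sox10, depend on neuregulin signals received by Erbb3, and wrap axons either singly with myelin or in bundles without it. They also build a basement membrane of laminins and type IV collagen around themselves, and after nerve injury they secrete growth factors and chemokines.

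Values are normalized counts, in which the reads of a gene were divided by 1 library-wide size factor, and they are given in the order of replicates 1, 2 and 3. Levels of different genes were compared only per kilobase of transcript, as TPM, each library scaled to the same total; where members of a list are ordered by count, the order is one of reads, which also depend on transcript length. Replicates 1, 2 and 3 held 18821938, 35584397 and 60078880 reads in genes, and 1 read was worth 1.52, 0.780 and 0.461 normalized counts. A count of 0, which allows up to 3 reads, therefore left room for up to 4.55, 2.34 and 1.38 normalized counts, for counting error only. In bulk RNA, fewer cells of a type and less RNA per cell cannot be told apart.

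Replicate 1 stood apart from the other libraries, and its values are therefore given separately throughout. Among the 11228 genes whose mean was 50 or more, the highest and lowest value of a gene differed at least 2-fold in 2887, or 25.7%. Replicate 1 was the library apart in nearly all of these: it was higher in 1198 genes (10.7%) and lower in 1494 (13.3%). Replicate 2 was higher in 9 genes (0.0802%) and lower in 128 (1.14%), and replicate 3 was higher in 39 (0.347%) and lower in 19 (0.169%). Without replicate 1, 182 genes differed at least 2-fold. With 1 library for each such value there is no test, and these shares serve as the background for the gene groups below.

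Of the 23366 listed genes, 12878 (55.1%) were detected at a mean of at least 10 normalized counts. A mean of at least 100 was reached by 10518 genes (45.0%), at least 1000 by 5987, and at least 10000 by 417. The 45.0% is the share over all genes for the counts of list members that reached 100 below. The spread between the 3 libraries narrowed with the level: the median coefficient of variation was 45.6% for means from 10 to 100, 23.9% from 100 to 1000, 18.5% from 1000 to 10000 and 17.5% above that. Most of this spread lay between replicate 1 and the others. For means from 1000 to 10000, the median gene differed by 0.41 on the log2 scale between replicates 1 and 2, by 0.46 between 1 and 3, and by 0.13 between 2 and 3.

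Type I collagen and other matrix genes led the count ranking. Col1a1, which encodes the alpha 1 chain of type I collagen, had the highest mean, with 104989, 251305 and 280123 normalized counts in replicates 1, 2 and 3 (mean 212139 ± 93907, SD, n = 3). Col1a2, the partner chain, followed with 130028, 211874 and 223449. Sparc, a collagen-binding matricellular protein, came next with 104044, 187349 and 189527. In each of these genes replicate 1 was the lowest library, and together they took 1.19% of the normalized counts of replicate 1 but 2.35% and 2.50% of replicates 2 and 3. The 10 highest genes took 3.66%, 5.02% and 5.27%.

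The rest of the top 20 by count mixed matrix, cytoskeletal and membrane genes. Spp1, which encodes the secreted phosphoprotein osteopontin, held 28139.5, 120626 and 124915 and Lrp1, an endocytic receptor, 22545, 135297 and 135207. Both were lowest in replicate 1. The stearoyl-CoA desaturase gene Scd2, in contrast, had close values of 102332, 108391 and 116111. The cytoskeleton was represented by Myh9, non-muscle myosin (mean 92379 ± 32417, SD, n = 3), Vim, vimentin (86856 ± 11176), Flna, filamin A (75225 ± 9238), and Actb, beta-actin (67839 ± 43027). Actb had the largest SD of these, with 116261, 33991 and 53266 in the 3 libraries. Ahnak, the noncoding RNA Malat1, S100a4, Lgals1, Nedd4, Cltc, Col6a3, Timp2, Hsp90b1 and Col5a2 completed the list.

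Per kilobase, small cytoplasmic proteins moved to the front. S100a4, a calcium-binding protein, reached 15573 ± 2282 TPM (SD, n = 3), Lgals1 (galectin-1) 9020.0 ± 412 and S100a6 7476 ± 889, against a median of 30.1 TPM over the 12777 detected genes with a known length. Sparc stood at 7329.8 ± 2481 TPM, Spp1 at 6422 ± 3966, the ferritin heavy chain gene Fth1 at 4289 ± 827, and Col1a1 and Col1a2 at 3776 ± 1769 and 3701 ± 1129. This ranking is uncertain for some genes. Ahnak (12604 ± 1937 TPM) and Eif4g2 (7731 ± 511 TPM) were divided by the length of a short annotated transcript, 0.83 and 0.742 kb, and S100a4 shared 58.1% of its 31-mers, the runs of 31 bases in its transcript, with transcripts of other genes. With the union of annotated exons as the length 10 of the 20 stayed among the highest 20, and with the median transcript length 13 did.

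**Figure D1:**
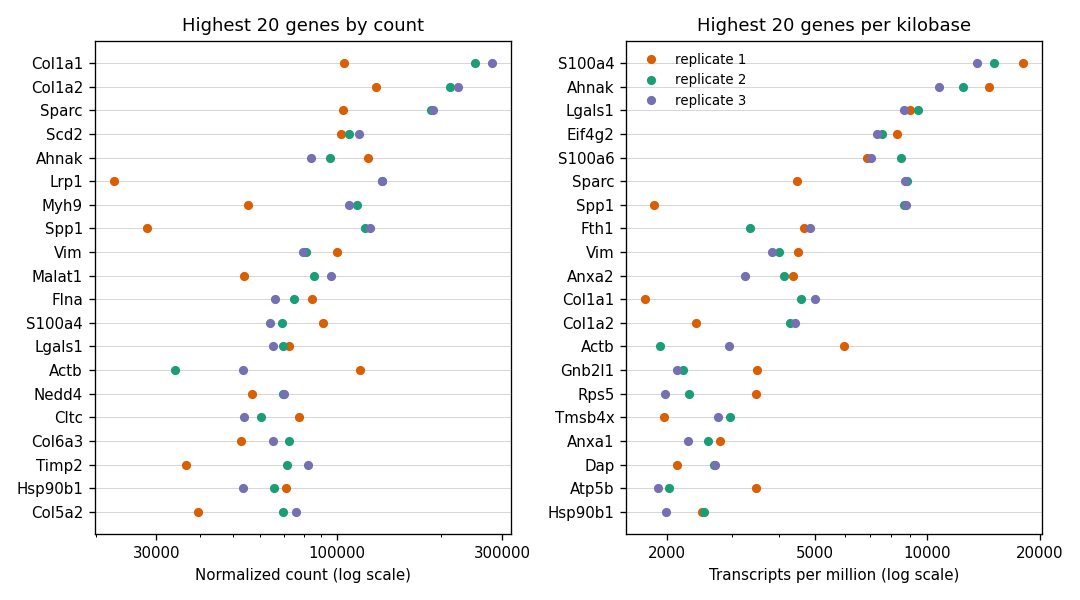
Values of the 20 highest genes by mean normalized count (left) and by TPM (right) in each of the 3 control libraries, on log axes. Replicate 1 lies to the left of both other libraries for Col1a1, Col1a2, Sparc, Lrp1 and Spp1, and to the right of both for Actb.

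The markers only partly bore out the label of Schwann cells. Of 16 transcription factors of the Schwann lineage, 10 had a mean of at least 100 and 3 were absent, which here means under 5 in all 3 libraries. Sox10, the factor that specifies and maintains the lineage, was at 4.55, 0 and 0, which is 3 reads in replicate 1 and none in the others. Pou3f2 was listed at 0 in every library, and Pou3f1, which promotes the onset of myelination, was at 9.1, 37.4 and 59.9. Other members had high counts: Nab2 (6781, 9039 and 10264) and Nab1 (4652, 1568 and 1861), cofactors of the EGR proteins, the injury-response factor Jun (4939, 6846 and 7677) and Zeb2 (4184, 4965 and 4428). Egr2, the master regulator of myelination, had 1143, 864 and 1179. The neural crest and immature Schwann cell factors Pax3 (1126, 948 and 1018), Tfap2a (643, 627 and 825) and Sox2 (335, 319.6 and 442) were also read in every library, with no library apart by 2-fold.

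The surface and cytoskeletal markers of immature Schwann cells were uneven too. Ncam1, a neural cell adhesion molecule, had 12938, 16716 and 14429, and Dag1, the laminin receptor dystroglycan, 6729.9, 14841 and 15827. Ngfr, the low-affinity neurotrophin receptor, had 4621, 2036 and 1789.6 and was highest in replicate 1. Gpr126, an adhesion receptor needed for myelination, had 2476, 3952 and 3753. Against these, Erbb3 was at 92.6, 71.7 and 49.3, Cdh19 at 85.0, 73.3 and 56.7, the calcium-binding protein gene S100b at 4.55, 18.7 and 6.91 and the intermediate filament gene Gfap at 0, 7.8 and 9.68. Ednrb and Chl1 were listed at 0 in all libraries. In all, 10 of 20 members reached a mean of 100, and 3 were absent.

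Of 18 myelin genes, 6 reached a mean of 100 and 6 were absent. Mag, a glycoprotein gene of the myelin membrane, was listed at 0 in all 3. Pmp22 (1130.5, 5149 and 5537), Mbp (1135, 2203 and 2578) and Cnp (874, 1334 and 1280.5), which are also expressed outside myelin, were higher, each lowest in replicate 1. Prx, the periaxin gene, had 226, 241 and 223. Among 13 genes of repair Schwann cells, 7 reached 100: the trophic factors Bdnf (1108, 2053 and 2166), Gdnf (1109, 1232 and 1299.8), Artn (841, 1062 and 919), Lif (674, 1369 and 1240.4), Nrg1 (1055, 1271 and 1178), Clcf1 and Btc. Shh, Olig1 and Igfbp2 were absent. Because Sox10, S100b and Mag were at or near 0, the cells are called control SC4 cells here.

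Mesenchymal genes were abundant beside them. Of 24 fibroblast and mesenchymal markers, 16 reached 100, 13 reached 1000 and 3 were absent. Col3a1 had 33643, 68093 and 60096, Cd34, a surface sialomucin, 9065, 14076 and 14219, and Postn, which encodes periostin, 5264, 12598 and 12181. Both platelet-derived growth factor receptor genes, Pdgfra (6147, 9427 and 8413) and Pdgfrb (12079, 9865 and 8601), and the transcription factor gene Twist1 (1552, 2257 and 2556) were read in every library. Fap and Tcf21 were listed at 0 and Lum was at 0, 0 and 4.15, while Thy1 had 15.2, 134 and 179 and Dcn 36.4, 186 and 207. The list was thus split, with fibrillar collagens and PDGF receptors high, and Lum, Dcn, Thy1, Prrx1 (3.03, 5.46 and 7.37) and Fap low or absent.

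Lists of other cell types that such a culture could hold were mostly low. Of 8 perineurial markers 4 reached 100, led by Tjp1 (7332, 7689 and 6747) and the glucose transporter gene Slc2a1 (4577, 4980.3 and 5279), but the claudin gene Cldn1 was at 12.1, 27.3 and 51.6. Of 13 pericyte and smooth muscle markers 2 did, Cspg4 (9930.2, 13371 and 15372) and Smtn (989, 3712 and 3513), whereas Acta2 (62.2, 28.8 and 73.7), Tagln (19.7, 32.7 and 20.7) and Myh11 (3.03, 5.46 and 8.29) did not. Of 14 macrophage markers 2 reached 100, Csf1r (119.9, 168 and 196) and Cd68 (164, 109.9 and 114), and 8 were absent, among them Cd14, C1qb, C1qc and Tyrobp at 0 in all libraries. The leukocyte gene Ptprc was at 0, 28.8 and 11.1 and Aif1 at 0, 35.1 and 17.5, both without a read in replicate 1. Of 12 endothelial markers 3 reached 100 and 5 were absent, with Cdh5 at 13.7, 10.1 and 10.1 and Pecam1 at 21.2, 60.8 and 64.0. Of 12 epithelial markers 2 reached 100, Krt18 (184, 338 and 373) and Krt19 (100.2, 239 and 251), and 6 were absent, with Cdh1 at 3.03, 0.78 and 0. Of 12 neuronal markers 3 reached 100 and 3 were absent, with Syt1, a synaptic vesicle calcium sensor, at 222, 1257 and 1579.5 and Rbfox3 at 0, 0 and 0.461.

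No marker of lymphocytes (8), central glia (10), skeletal muscle (7), fat cells (6), germ and pluripotent cells (7) or red blood cells (6) reached 100. Absent were 7, 5, 6, 4, 7 and 6 of these. Among 5 hepatocyte markers 4 were absent and 1 reached 100. Of 10 cartilage and bone markers 5 reached 100. Spp1 led them, followed by the chondrogenic factor Sox9 (3737, 2742 and 3318) and the bone factor Runx2 (1339.9, 1868 and 2174), while Bglap (0, 1.56 and 0.461), the osteocalcin gene, and Ibsp (6.07, 1.56 and 2.76) were at or near 0. Col10a1, a collagen of maturing cartilage, had 3.03, 210.5 and 283 and Alpl, alkaline phosphatase, 13.7, 103 and 188, both nearly unread in replicate 1.

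**Figure D2:**
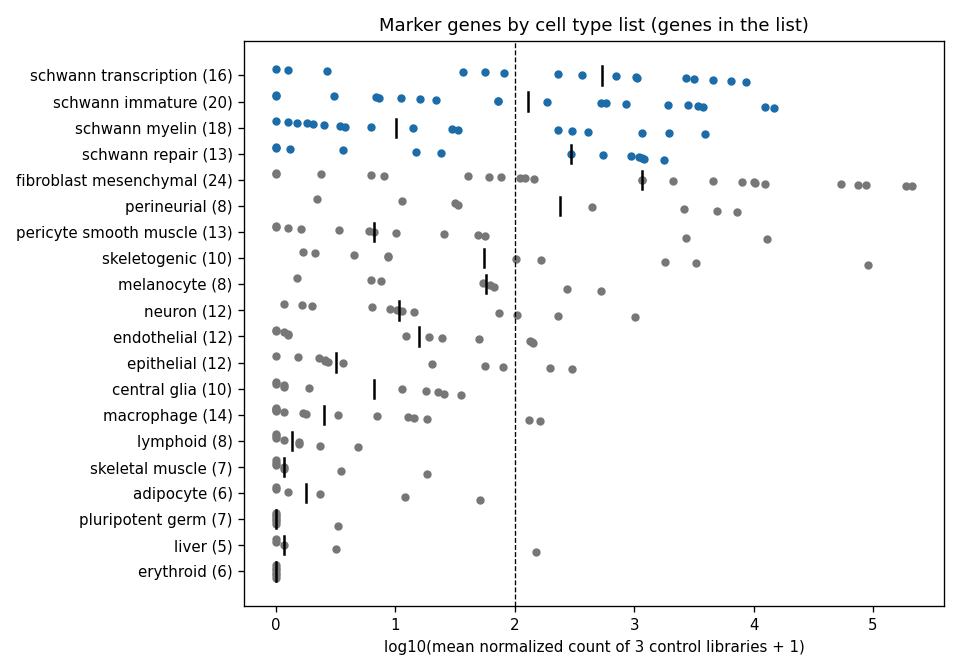
Mean normalized count of each marker gene over the 3 control libraries, as log10(mean + 1), by cell type list with the number of genes in brackets; black bars are list medians and the dashed line is a mean of 100. Schwann lists (blue) spread from 0 to over 10000, the fibroblast list reaches the highest values, and the lymphoid, germ cell and erythroid lists lie near 0.

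Genes that record body position were read from all 4 HOX clusters. HOX genes encode transcription factors and are used in an order along the body axis. Of 39 HOX genes listed, 30 were detected at 10 or more, 21 reached 100 and 6 were absent. The C cluster was the highest by summed counts, with 3446, 4308 and 4862, and none of its 9 genes was absent. Hoxc13, the last gene of that cluster, had 1223, 1666 and 1830.2, the highest counts of a HOX gene, followed by Hoxc6 (959, 1062 and 1188), Hoxc10 (559.9, 716 and 828), Hoxd13 (754, 612 and 737) and Hoxb9 (941, 506 and 590.2). The A cluster was the lowest: 2 of its 11 genes reached 100, among them Hoxa5 (141, 156 and 151), and the cluster summed to 414, 521 and 566. Hoxa13, Hoxa11, Hoxb13, Hoxb1, Hoxd1 and Hoxd12 were the absent ones. In groups 10 to 13, 3 of 4 listed genes of the C cluster and 3 of 4 of the D cluster reached 100, against none of 3 in the A cluster.

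Other patterning factors were expressed beside the HOX genes. Of 28 homeobox and related genes of head and limb patterning, 11 reached 100 and 10 were absent. Emx2, which patterns the forebrain, was among the 11 (605, 764 and 752), as were Lhx6 (744, 1069 and 1083), Six4 (2119.9, 990.0 and 1344) and Msx2 (1149, 939 and 1034). Of 16 T-box genes 3 reached 100, Tbx3 (2516, 2672 and 2961), Tbx20 (1801, 1618 and 1816) and Tbx18 (1338, 909 and 889), and 8 were absent, including Tbx4 and Tbx5, which mark hindlimb and forelimb. Of 9 PAX genes 2 reached 100, Pax3 and Pax1 (640.4, 590.1 and 761), and 6 were absent. Of 20 SOX genes 9 reached 100 and 9 were absent. The highest were Sox9 and Sox4 (2889, 2729 and 3814, with 54.7% of its 31-mers in other genes).

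All 22 tumour suppressor genes listed had a mean of at least 100, and 20 had at least 1000. Nf2 itself was read at 4000.0, 3767 and 3569.6, with a mean of 3779 ± 215 (SD, n = 3) and 83.3 ± 3.14 TPM. The values are sums over the whole gene, so they do not show which exons were read and do not test the null label. Cdkn2a, which encodes the inhibitors p16INK4a and p19ARF, had 6807, 12796 and 13997. The neighbouring Cdkn2b had 1179, 2328 and 2273, and both genes were lowest in replicate 1. Trp53, the p53 gene, had 6359.6, 2342 and 3082, highest in replicate 1. Nf1, whose loss causes the other neurofibromatosis, had 8549, 10760.4 and 10608, Smarcb1, a schwannomatosis gene, 3654, 4541 and 4823, and Lztr1, another, 1912, 2254 and 2127. The Hippo kinase genes Lats1 (11558, 7929 and 7243) and Lats2 (3853, 8066 and 9028) went in opposite directions in replicate 1. The co-activators that these kinases restrain, Yap1 (4749.6, 5732 and 4751) and Wwtr1 (6033, 6311 and 6848), had similar values in all libraries.

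Xist, the RNA that coats the inactive X chromosome, had 11106, 12649 and 12872, and all 7 Y-linked genes in the list were absent. Of 26 imprinted genes 10 reached 100 and 10 were absent. The maternally expressed Igf2r had 11378, 20027 and 19724 and the paternally expressed Peg10 5443, 6909.6 and 7749, whereas Igf2, Dlk1 and Rian were listed at 0 in all libraries, with Meg3 at 4.55, 0.78 and 0 and H19 at 1.52, 32.7 and 13.8. Igf2 shared 92.3% of its 31-mers with other genes, so its 0 is uncertain.

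Some matrix genes were among the highest of the transcriptome by count. Per kilobase the 9 matrix lists spread widely, beside a median of 1.803 TPM over all genes. Medians, absent members included, were 0.557 TPM for other collagens, 1.75 for proteases, 3.17 for proteoglycan and hyaluronan genes and 5.89 for integrins. They were 24.9 for fibrillar collagens, 37.6 for glycoproteins, 52.96 for basement membrane genes, 118.5 for protease inhibitors and 122.5 for collagen modifying genes. Of 237 genes in the 9 matrix lists, 147 reached a mean of 100, 104 reached 1000 and 46 were absent. Together they took 4.65% of the normalized counts of replicate 1 and 8.41% and 8.69% of replicates 2 and 3. The collagens that form fibrils were nearly all present: 9 of 11 reached 100, Col5a2 had 39689, 69976 and 76262 and Col5a1 13438, 22241 and 23114, and the cartilage collagen Col2a1 was lowest at 0, 6.24 and 16.6. Collagen VI, a bead-forming collagen of nerve and muscle, had 52616, 72726 and 65106 for Col6a3, 17621, 31701 and 31070.1 for Col6a1 and 3949.9, 15133 and 16680.3 for Col6a2. Of 25 other collagens 9 reached 100 and 9 were absent.

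Basement membrane genes were also high, 17 of 23 at 100 or more. Col4a1 (32112, 41874 and 44931) and Col4a2 (19549, 41550.3 and 45573) encode the common chains of type IV collagen. Hspg2, which encodes perlecan, had 6264, 49088 and 58879, far lower in replicate 1. The laminin beta and gamma chain genes Lamb1 and Lamc1 had 16710.1, 34046 and 28840.0 for Lamb1 and 27672, 24521 and 20926 for Lamc1. Of the alpha chains, Lama5 had 10038, 21635 and 22278, Lama4 2089.5, 3624 and 3165 and Lama2, the alpha chain of the Schwann cell basement membrane, 134, 1501 and 1524. Per kilobase Lama5 stood at 166 ± 68.8 TPM, Lama4 at 51.4 ± 15.7 and Lama2 at 11.7 ± 8.92 (SD, n = 3). Absent were Lama1, Col4a3, Col4a4 and Col15a1, each under 5 in every library.

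Of 39 matrix glycoproteins 28 reached 100 and 7 were absent. Fn1 (fibronectin) had 30346, 69339 and 65939, Thbs1 (thrombospondin 1) 11048, 46032 and 46171 and Ltbp1, which binds latent TGF-beta, 15335, 29826 and 29150.0. Eln, Vtn, Efemp1 and Mfap4 were listed at 0. Of 28 proteoglycan and hyaluronan genes 14 reached 100 and 7 were absent. Gpc1 (19378, 32816 and 33859), the hyaluronan receptor gene Cd44 (17786, 14663 and 13798) and Cspg4 led, and the lectican gene Vcan was at 83.5, 186 and 137. Enzymes that modify, fold or crosslink collagen were nearly all present, 19 of 21, with P4hb at 44999.8, 51461 and 41882 and the collagen chaperone gene Serpinh1 at 28713, 38868 and 38155. Loxl1 (28.8, 32.7 and 60.4) and Loxl2 (10.6, 53.8 and 22.1) did not reach 100.

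Of 52 proteases 25 reached 100 and 12 were absent, beside 45.0% and 39.1% of all listed genes. The cathepsins Ctsd (26044, 32919.5 and 33846) and Ctsb (29543, 31357 and 30032) led, and Mmp9, a gelatinase, had 7111, 22838 and 24707. The other gelatinase, Mmp2, had 200.3, 269.7 and 247, and Mmp14, its membrane-bound activator, 12.1, 4.68 and 10.1. Per kilobase Mmp9 stood at 607 ± 335 TPM and Mmp2 at 8.13 ± 1.56 (SD, n = 3). Their inhibitors Timp2 (36481, 71661 and 82253), Timp3 (17578, 18670.1 and 19266) and Timp1 (4358, 4982 and 5339) were read in every library, and Timp4 was listed at 0. Of 11 protease inhibitor genes 7 reached 100.

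Of 27 integrin genes, the cell receptors for this matrix, 19 reached 100 and 5 were absent. Itgb1, the shared beta 1 subunit, had nearly equal values of 33305, 33992 and 32598. Its alpha partners Itga3, of a laminin receptor (19596, 35408 and 39414), and Itgav (18578, 26357 and 26214) and Itga5 (11335, 13269.6 and 13082), of fibronectin receptors, had high counts too. Of the leukocyte subunits, Itgal was at 0, 8.57 and 1.84, Itgam at 0, 1.56 and 0.461, and Itgad and Itgax were listed at 0.

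Genes for both sides of many ligand and receptor families were transcribed in the same culture. The families include growth factors, matrix proteins such as laminin and fibronectin, and enzymes that make lipid ligands. In 40 of 58 ligand and receptor families, at least 1 ligand and at least 1 receptor had a mean of 100 or more. This count was also 40 without replicate 1, and 35 when all 3 values had to reach 100. In 8 families only the ligand side reached 100, in 7 only the receptor side, and in 3 neither. Of 123 ligands 79 reached 100 and 14 were absent, and of 122 receptors 84 reached 100 and 18 were absent. RNA levels do not show that the proteins met, and these counts have no test.

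In several receptor tyrosine kinase families, the highest ligand gene and the highest receptor gene both had a mean of at least 1000. Pdgfb, the ligand of both PDGF receptors, had 6214, 5885 and 6432, beside Pdgfrb at 12079, 9865 and 8601. Vegfa had 8100.1, 7875 and 8168, beside its receptor genes Nrp2 (23803, 13638 and 12888), Nrp1 (4461, 4978 and 5097) and Flt1 (2803, 3598 and 3625), but Kdr, its main signalling receptor in vessels, had 115, 135 and 161. Axl had 26359.5, 24304 and 22586 and the ligand gene Pros1 of its family 909, 1653 and 1525. Gas6, the other ligand listed for this family, was absent at 0, 1.56 and 1.84. Epha2, an ephrin receptor, had 13205, 14069 and 15026, with Efna5 at 812, 1505 and 1536. Fgfr1 had 5812, 10668 and 10452, beside the ligand genes Fgf7 (1633, 3447 and 3853) and Fgf10 (1215, 1436 and 1409). For the epidermal growth factor receptor, Egfr had 2058, 2537 and 2416, Hbegf 2507, 2614 and 2859 and Ereg 1980.3, 2307 and 2461.

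Other families leaned to one side by count. Met, the receptor of hepatocyte growth factor, had 12665, 10373 and 9645, but its ligand Hgf had 106, 381 and 362. Igf1r had 4757, 6432 and 6267, whereas Igf1 was at 28.8, 386 and 479.7 and Igf2 at 0 in every library. In replicate 1 the ligands Hgf and Igf1 were below both other libraries. Nrg1 had 1055, 1271 and 1178, but its receptors Erbb3 (92.6, 71.7 and 49.3) and Erbb4 (listed at 0) were low, with the partner receptor Erbb2 at 1121, 1525 and 1199. Kitl had 6666, 3642 and 3308 without its receptor Kit (3.03, 0.78 and 15.7). Csf1, the macrophage growth factor, was high at 40502, 29871 and 31004, with its receptor Csf1r at 119.9, 168 and 196.

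Chemokines without their receptors formed a further group. Ccl7 (12076, 10583 and 5340.3) and Ccl2 (6191, 5158 and 6762) attract monocytes through the receptor gene Ccr2, which was at 0, 0.78 and 1.38. Cx3cl1 (fractalkine) had 5103, 11983 and 15418 and Cx3cr1 4.55, 0.78 and 3.69. In the reverse direction, Osmr (387, 1301 and 1387) and Tnfrsf1a (3176, 3823 and 4347) were present without their ligands Osm (0, 0.78 and 0) and Tnf (3.03, 3.12 and 2.76). All 3 TGF-beta ligands and all 3 receptors reached 1000: Tgfb1 had 2067, 5895 and 6881 and Tgfbr2 9176, 11803 and 11651. Wnt7b was the only canonical WNT ligand of 5 listed to reach 100 (3293, 6223 and 6102), with Lrp5 at 2150.2, 5776 and 6045. Dhh, the hedgehog ligand of Schwann cells, had 299, 663 and 787 and its receptor Ptch1 1695, 3145 and 2987.

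Guidance families were present on both sides. Sema3f had 1106, 5153 and 6526, Sema7a 6712, 9288 and 10995, Slit2 2932, 5162 and 5060.2 with Robo1 at 1337, 3739 and 3926, and Ntn1 1592, 3524 and 3853 with Unc5b at 3347, 8499.8 and 10907. Notch2 had 9358, 9802 and 8609.9 and Dll1 1162, 1092 and 969.9. For the GDNF family, Gfra1 had 2842, 4352 and 4582, but the signalling receptor Ret had 83.5, 124 and 98.6. Ptgs2, the gene of cyclooxygenase 2, had 7064, 8896 and 9679, beside the synthase gene Ptges (59.2, 183 and 139) and the receptor gene Ptger4 (75.9, 235 and 259).

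**Figure D3:**
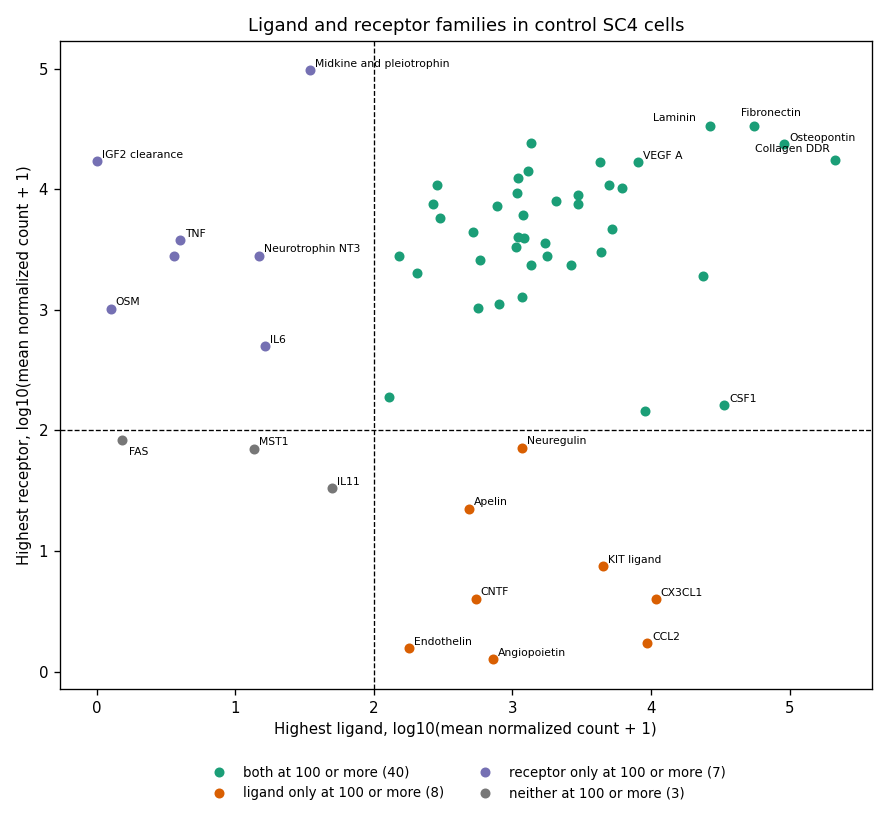
Each point is 1 of 58 ligand and receptor families, placed at log10(mean normalized count + 1) of its highest ligand (horizontal) and highest receptor (vertical) over the 3 control libraries. Dashed lines mark a mean of 100; 40 families lie above both, and the CCL2, CX3CL1 and KIT ligand families lie at the lower right with a high ligand and a receptor under 10.

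Metabolic and stress programs were read in large part. All 28 genes of the amino acid and endoplasmic reticulum stress list reached 100 and 24 reached 1000, among them the chaperone genes Hsp90b1 (71253, 65801 and 53253) and Hspa5 (41540.1, 41464 and 37184). The stress factor gene Atf4 had 39484, 15041 and 12443, highest in replicate 1. Of 28 sterol and fatty acid genes 25 reached 100. Fasn, the fatty acid synthase gene, had 28083, 31034 and 33157, and Srebf2, which drives sterol synthesis, 16490.1, 17882 and 19378. Hmgcs1, an enzyme of the same sterol route, was listed at 0 in every library, and Idi1 was at 137, 35.9 and 82.5. Of 82 nuclear genes of the respiratory complexes 69 reached 100, with Atp5b at 67224, 35912 and 34386, and of 25 glycolysis and hypoxia genes 18 did.

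Proliferation genes were all present: 26 of 26 genes of G2 and mitosis and 28 of 28 of S phase reached 100. Top2a, a mitotic topoisomerase, had 28522, 14999 and 12153, Mki67 19536, 13704 and 11203, and the ribonucleotide reductase gene Rrm1 12634, 6356 and 5205. Of 25 immediate early genes 22 reached 100, led by Jun, Fosl2 (5123, 5692 and 6209.8), Fosl1 (3263, 4929 and 5254) and Myc (3481, 4467 and 4614), while Fos was at 62.2, 85.0 and 111. Of 82 chemokine and cytokine genes 14 reached 100 and 47 were absent. Of 14 antigen presentation genes 5 reached 100: B2m had 13569, 17986 and 23756, but the class II genes H2-Aa and H2-Ab1 and their regulator Ciita were listed at 0.

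Several genes that every cell uses had low values that cannot be read as low expression. Gapdh, the glycolytic enzyme, was at 47.0, 45.2 and 49.8, Ppia at 57.7, 29.6 and 50.7 and Eno1 at 16.7, 17.9 and 65.4, and they shared 84.1%, 57.4% and 77.2% of their 31-mers with transcripts of other genes. Of 86 ribosomal protein genes 52 reached 100, 17 reached 1000 and 4 were absent. Rpl8 had 15291, 23162 and 26668 (8.28% shared), whereas Rps29 had 13.7, 8.57 and 29.9 (39.2% shared). How the authors counted reads that fit several genes is not given in the sources used here. Genes with near-identical copies are therefore uncertain throughout, also where they are listed at 0.

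In all, 9133 genes (39.1%) were absent, that is under 5 in all 3 libraries, and 6540 of them had no read in any library. The count was 9365 without replicate 1. A further 1355 genes lay between this limit and a mean of 10. Near the limit, 852 genes had a highest value from 3 to under 5, and 397 had one from 5 to 7. Of 20364 protein-coding genes, 7015 (34.4%) were absent, against 586 of 752 long intergenic RNA genes (77.9%) and 560 of 609 microRNA genes (92.0%), whose mature products were not measured.

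Several tissue-restricted families were nearly all absent. Of 1122 olfactory receptor genes 1119 were absent, as were 331 of 334 vomeronasal and 35 of 38 taste receptor genes. All 30 Rhox homeobox genes and 25 of 26 prolactin family genes were absent, as were 50 of 52 keratin-associated protein genes, 42 of 52 keratin genes and 39 of 43 beta-defensin genes. Of 369 solute carrier genes 132 (35.8%) were absent, and of 360 zinc finger genes named Zfp 34 (9.44%), beside the 34.4% over all protein-coding genes. Among coding genes that shared at least 50% of their 31-mers with other genes, 1011 of 1618 (62.5%) were absent, and among those that shared at most 1%, 3186 of 10381 (30.7%).

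Replicate 1 differed from replicates 2 and 3 along recognisable gene groups. Interferon-stimulated genes, which cells induce on sensing viral RNA or interferon, were one such group: of 23 with a mean of at least 50, 18 were at least 2-fold lower in replicate 1, none was higher, and all 23 had their lowest value there. The share over all genes was 13.3%, as given above. Ifi44 had 6.07, 355 and 314, Irf7, a factor that amplifies interferon production, 3.03, 200.3 and 270.5, Ifit1 75.9, 967 and 1010.0, Isg15 51.6, 286 and 406, Bst2 289.8, 1115 and 1424 and the chemokine gene Cxcl10 288, 1299 and 1456. Replicates 2 and 3 lay near each other in each. Ifit2 was close to even at 1593, 1932 and 1769.8, and Ddx58 was lower in replicate 1 by less than 2-fold, at 1305, 2425 and 2334. Among the 10 members that shared at most 1% of their 31-mers, 7 were lower in replicate 1. Over the 14 macrophage markers the summed counts were 285, 384 and 359, with Ptprc and Aif1 at 0 in replicate 1, and over the 12 endothelial markers they were 300.5, 603 and 632. The part of such cells in the interferon values was not tested.

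The sequence before the start sites of the interferon-stimulated genes is shown as a description. The bases GAAA, any 2 bases and GAAA again, searched on both strands (TTTC, any 2 bases and TTTC on the other) with overlapping matches counted, form the core of the element that interferon-activated factors bind. They occurred in the 250 bases before the start of 10 of the 22 list members in the RefSeq promoter table (45.5%), and of 7 of the 13 of these that were lower in replicate 1 (53.8%), against 936 of all 27025 genes in the table (3.46%) and 254 of the 8396 with a mean of at least 50 (3.03%). The list was chosen as interferon-stimulated genes, so its share above that of all genes says nothing about replicate 1. The share among members lower in replicate 1 was not tested against that of the whole list. A match is a description of these letters and not a shown binding site. The 3 genes with the highest mean among those lower in replicate 1 and with a match in the last 150 bases before the start are printed 5′ to 3′, with matches on either strand in capitals, from RefSeq on build GRCm38.p6: Bst2 at chr8:71537473-71537622 on the minus strand, Ifit1 at chr19:34640739-34640888 on the plus strand and Gbp3 at chr3:142559894-142560043 on the plus strand. Their values were 289.8, 1115 and 1424 for Bst2, 75.9, 967 and 1010.0 for Ifit1 and 71.3, 406 and 396 for Gbp3.
Bst2: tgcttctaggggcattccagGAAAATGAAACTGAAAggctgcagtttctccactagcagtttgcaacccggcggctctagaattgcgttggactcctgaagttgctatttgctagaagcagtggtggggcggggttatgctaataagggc
Ifit1: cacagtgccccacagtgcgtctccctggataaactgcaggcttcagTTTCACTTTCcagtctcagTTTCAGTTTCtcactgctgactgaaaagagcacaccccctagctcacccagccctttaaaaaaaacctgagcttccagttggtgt
Gbp3: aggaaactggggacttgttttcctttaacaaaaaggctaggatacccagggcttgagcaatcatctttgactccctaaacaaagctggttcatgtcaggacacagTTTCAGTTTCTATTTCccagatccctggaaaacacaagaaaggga
Each of the 3 windows holds 2 matches, which overlap in Bst2 and Gbp3 and are separate in Ifit1.

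Matrix genes were also lower in replicate 1. Of 155 members of the matrix lists with a mean of at least 50, 91 were at least 2-fold lower there and 2 higher. The 91 included 7 of 10 fibrillar collagens, 12 of 17 basement membrane genes, 9 of 11 other collagens, 17 of 29 glycoproteins, 16 of 27 proteases, 11 of 19 integrins, 8 of 15 proteoglycan and hyaluronan genes, 4 of 8 protease inhibitors and 7 of 19 collagen modifying genes. Among matrix genes that shared at most 1% of their 31-mers the count was 56 of 101. Fkbp10, a collagen chaperone, had 12.1, 301 and 346, Adamts14, a procollagen protease, 153, 2160.0 and 2337, and the integrin gene Itga11 71.3, 850.4 and 969. The matricellular gene Cyr61 was among the 2 that were higher there (17033, 8219.9 and 8719). Lamc1, Nid1 (12127, 11682 and 11243), Itgb1 and Timp3 differed less than 2-fold between libraries.

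Proliferation and translation genes went the other way. Of 54 genes of S phase and mitosis, 33 were at least 2-fold higher in replicate 1 and none lower, against 10.7% of all genes. Cdk1, the mitotic kinase, had 10422, 4198 and 4035, Ccna2 11179, 5422 and 4689 and Aurka 4174, 2221 and 1627. Among members that shared at most 1% of their 31-mers the count was 10 of 21. Of 61 ribosomal protein genes 36 were higher in replicate 1 and 8 lower in replicate 2, but none of the 61 shared 1% or less, so the alternative could not be applied to them. Of 16 housekeeping genes 10 were higher in replicate 1, Actb among them (116261, 33991 and 53266). Replication histone genes were lower in replicate 1 in 8 of 9 cases, against 13.3% of all genes, led by Hist1h2bc (74.4, 1158 and 1624). None of these 9 shared 1% or less either, and their median share was 34.5%. Their messages mostly lack the poly(A) tail used for selection.

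Further lists differed in part. Over all genes, 10.7% were higher and 13.3% lower in replicate 1. Chemokine and cytokine genes were lower in replicate 1 in 10 of 17 cases and higher in none, and 8 of 13 were lower among those that shared at most 1% of their 31-mers. Immature Schwann cell markers were lower in 5 of 12 cases and higher in 1. Nuclear genes of the respiratory complexes were higher in 18 and lower in 5 of 69 cases, and sterol and fatty acid genes higher in 7 and lower in none of 26. HOX genes were lower in replicate 1 in 3 of 27 cases and higher in none, immediate early genes lower in 1 of 23, and tumour suppressors higher in 2 and lower in 3 of 22. Stress genes were higher in 4 and lower in 1 of 28. HOX, immediate early, tumour suppressor and stress genes thus lay near or below the shares over all genes.

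**Figure D4:**
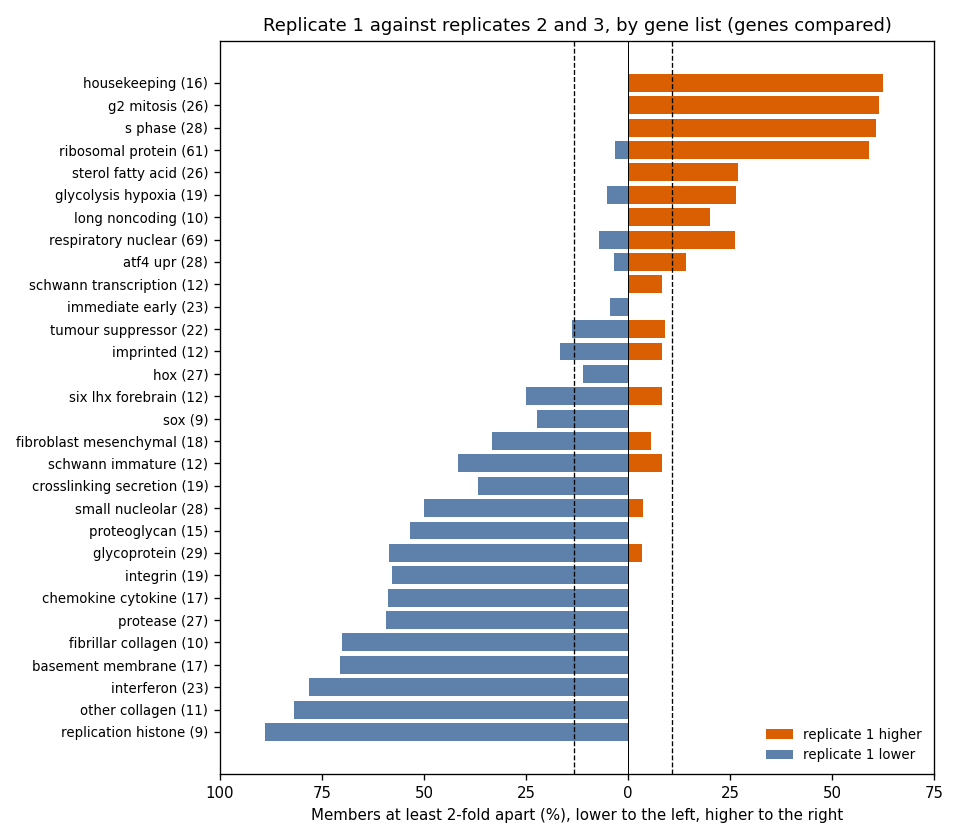
Share of each gene list's members with a mean of at least 50 that were at least 2-fold higher (orange, right) or lower (blue, left) in replicate 1, with the number compared in brackets; dashed lines are the shares over all genes, 10.7% and 13.3%. Replication histone, collagen, interferon and basement membrane lists extend to the left, and housekeeping, mitosis, S phase and ribosomal protein lists to the right.

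Single genes showed wide gaps. Among genes whose mean was 200 or more, the lowest in replicate 1 relative to the others were Ace, the angiotensin-converting enzyme gene (31.9, 2975 and 3356), Shank1, a synaptic scaffold gene (4.55, 321 and 534), Ifi44, Dmp1 (9.1, 375 and 357), Cd74, the class II invariant chain gene (62.2, 2232 and 2584), and Ptprv (27.3, 856 and 904). With the same limit, the highest in replicate 1 relative to the others were Rps4x (3577, 27.3 and 82.0), Cox5b (1065, 18.7 and 70.5), Gps1 (1592, 59.2 and 113), Hsp90aa1 (6053, 157 and 441), Ddx18 (1602, 55.3 and 118) and Glrx3 (812, 31.2 and 63.6). These 6 shared between 32.7% and 78.4% of their 31-mers with other genes, whereas the 6 lowest shared between 0.402% and 5.36%.

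Replicates 2 and 3 stood apart in fewer genes, named here with the same limit on the mean. Replicate 2 was lower for Tpt1 (1871, 106 and 465), which shared 42.9% of its 31-mers, and for Nme2, Rpl37 and Spcs1, and it was higher for Tmem173, the STING gene (375, 831 and 464), and Fan1. Replicate 3 was higher for Rpl41, Prr7 (92.6, 185 and 369), Snord47, Ckb, Jund (648, 1054 and 1966) and Thap3. It was lower for Dusp22 (334, 439 and 168), the chemokine gene Ccl7, Lmln, Magohb, Trmt10b and Ttk.

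Base composition and sequence sharing moved with these differences. The median transcript G+C content was 54.6% for genes lower in replicate 1, 47.0% for genes higher there and 50.1% for genes that did not differ at least 2-fold. Among the 20% of genes with the highest G+C content, 27.98% were lower in replicate 1 and 3.27% higher. Among the 20% with the lowest, 6.31% were lower and 17.7% higher. Genes with no shared 31-mer were higher in replicate 1 in 3.51% of cases, and genes that shared more than 50% in 33.9%. Of lists mostly lower in replicate 1, the interferon list had a median G+C content of 47.4% and the replication histone list 48.8%. Of lists mostly higher there, G2 and mitosis genes had 46.4%, S phase genes 48.9%, ribosomal protein genes 51.5% and housekeeping genes 51.6%. The matrix lists ranged from 49.9% for proteoglycan and hyaluronan genes to 56.8% for fibrillar collagens. Proteases, of which 16 of 27 were lower in replicate 1, had 50.02%. Depth also differed, replicate 1 being the shallowest library. The part of base composition, sharing and depth in the gene group differences was not tested.

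**Figure D5:**
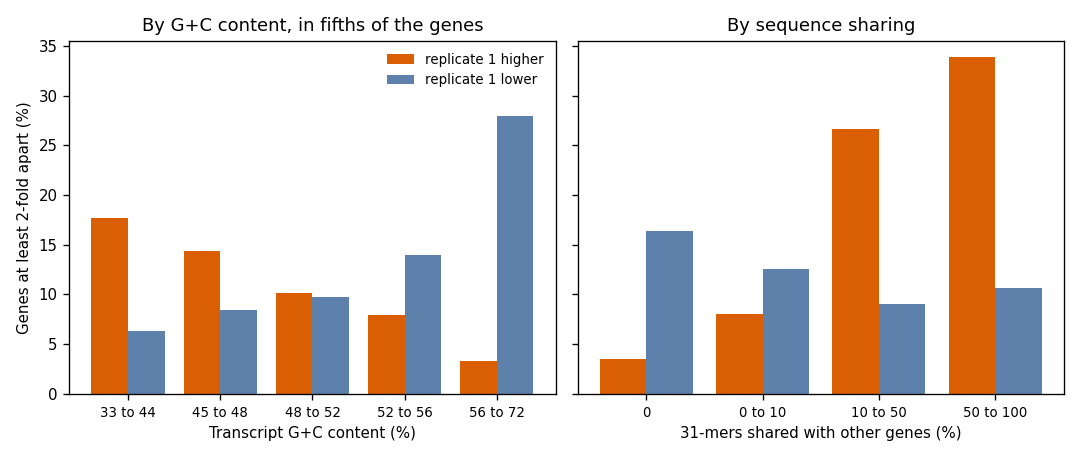
Share of genes with a mean of at least 50 that were at least 2-fold higher (orange) or lower (blue) in replicate 1, by transcript G+C content in 5 equal groups (left) and by the share of 31-mers found in transcripts of other genes (right). The lower share reaches 27.98% in the highest G+C group, and the higher share reaches 33.9% where more than 50% of 31-mers are shared.

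A small set of pigment cell genes was read almost solely in replicate 1. Tyrp1 (176, 0 and 5.07) and Dct (155, 0 and 3.69) encode enzymes of melanin synthesis, and Slc24a5 (89.5, 0.78 and 0) a melanosome transporter. The melanosome fibril gene Pmel had 130.5, 27.3 and 38.2 and Mlana 13.7, 1.56 and 0.461, highest in replicate 1 too. Mitf, their transcriptional regulator, was read in every library at 639, 433 and 509, and Tyr was at 1.52, 0 and 0. Over the 8 pigment cell markers the summed counts were 1385, 731 and 846. In all, 10 genes had at least 30 normalized counts in replicate 1 and no more than 1 part in 20 of that in either other library, with Actc1 (86.5, 0 and 3.23) and Degs2 (50.1, 0 and 0) among them; no gene met this rule for replicate 2 or 3. These genes were chosen after their values were seen.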

How the data were processed

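RNA with a poly(A) tail was cut to about 150 nt, joined to directional adapters, amplified over 15 cycles and read from both ends, per the labels' protocols. TopHat2 2.0.9, HTSeq 0.6.1, DESeq 1.14.0 and build mm9 are named, per the submitters' processing notes. The annotation, the strand setting and any filter were not given in the sources used here. The deposited table holds a signal unit made by the authors: reads per gene over a factor for the library's size. In the 3 columns used, 100% of values above 0 were whole multiples, within 0.01 reads, of 1 read's worth, so reads were recovered. The 3 columns of the other group were not used.

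From these values, means, SDs and coefficients of variation (n = 3) were computed with Python 3.11.15, pandas 2.3.3 and numpy 2.4.6. Lengths (longest principal transcript), G+C content and 31-mer sharing came from GENCODE mouse release 21 on GRCm38, another build than the files, so no coordinates were taken from the files; 22976 of 23366 symbols matched, 1244 by an older name. Per-kilobase levels (TPM) are these values over length, scaled to a fixed sum. Library differences used the ratio of highest to lowest value + 1, at least 2, in genes whose mean was 50 or more, assigned to the library farther from the middle value, and this step was tested on simulated data. No comparison has a test, since 1 group was described.

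The 54 gene lists, of which the one for the mitochondrial genome matched no listed gene, the 58 ligand and receptor families and the members were chosen with earlier results of these data known. Genes were named by rule: the 20 highest, all members of lists of up to 12 or else the 5 highest and the absent ones written first, ligands and receptors with a mean of at least 1000 or the best of a family, 6 genes per library and direction with a mean of at least 200, and 15 genes named singly. The text uses fewer, and names further list members after their values were seen. Alternatives were other limits, lengths, pseudocounts, scalings and leaving out libraries. Some genes that the rule names are not reported here.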

Additional observations from a re-analysis of the deposited data

How the results depend on the processing

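Counts by level depended on the limit and moved little when 1 library was left out. Detected genes ranged from 11228 to 15300 over limits of 50 and 1, and from 12780 to 12924 without 1 library. Absent genes ranged from 6540 to 9942 over the limits tried, and from 9325 to 9507 without 1 library. Of the 20 highest genes per kilobase, 10 stayed with the union of annotated exons as length, 13 with the median transcript length, and 16 to 20 without 1 library. Families with both sides present ranged from 27 (mean of at least 1000) to 47 (mean of at least 10), and from 39 to 40 without 1 library. Lists with at least 1 member in 2 at a mean of 100 numbered 26, and 38 at a mean of 10. Genes that differed between libraries were 2887, 820 at a 4-fold limit, 1202 of 5885 (20.4%) among genes that shared at most 1% of their 31-mers, 2911 after rescaling to one total, 2822 after quantile normalization, and from 182 (without replicate 1) to 2461 without 1 library. With at most 1% of 31-mers shared, an alternative added after seeing the data that leaves fewer genes, interferon genes lower in replicate 1 were 7, matrix genes lower 56, and S phase and mitosis genes higher 10. Under the other alternatives for these lists, also added later, interferon genes ranged from 17 to 20, matrix genes from 86 to 94, S phase and mitosis genes from 23 to 33 and ribosomal protein genes from 34 to 44. Leaving out 1 library at a time was possible here for replicates 2 and 3 and gave 18 interferon genes each time, 86 to 87 matrix genes, 23 to 33 S phase and mitosis genes and 36 to 44 ribosomal protein genes. Ribosomal protein genes could not be recounted under the sharing limit, since none is left. No paired analysis was possible because 1 group was described. The depth of replicate 1, 18821938 reads in genes, limits what can be said of genes under about 4.55 normalized counts there.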

Other observations

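Noncoding RNA genes were uneven in level and in agreement between libraries. Of 15 long noncoding RNA genes listed 10 reached a mean of 100: Malat1 had 53745, 85846 and 96330.5 normalized counts in replicates 1, 2 and 3, Neat1, the scaffold of paraspeckles, 6024, 6621 and 5809.8, and Gas5 7211, 5714 and 6816. Of 613 microRNA genes 3 reached 100 and 564 were absent; the 2 highest, Mir22hg (1272, 1125 and 1008) and Mir17hg (901, 309 and 295), are host transcripts and not mature microRNAs, which were not measured. Of 120 small nucleolar and related RNA genes 16 reached 100. Of 28 with a mean of at least 50, 22 differed at least 2-fold between libraries. Of the 28, 14 were lower in replicate 1, beside 13.3% over all genes, and 1 was higher there. Replicate 2 was higher in 2, and replicate 3 was higher in 4 and lower in 1. Snord49a had 156, 1439 and 2562 and Snord82 590.3, 1186 and 1869. The ribosomal RNA precursor Rn45s had 2375, 40498 and 101090.0, or 0.00831%, 0.146% and 0.365% of each library.

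Of 68 replication-dependent histone genes, whose messages mostly lack the poly(A) tail used for selection, 6 reached 100 and 38 were absent. The highest, Hist1h2bc (74.4, 1158 and 1624) and Hist1h1c (175, 960.4 and 1279), were both lowest in replicate 1. Of 25 glycolysis and hypoxia genes 18 reached 100, led by P4ha1 (14046, 17812 and 16917) and Pkm (29731, 4978 and 10269), the latter sharing 50.9% of its 31-mers with other genes. The homeobox gene En1 had 395, 528 and 844.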
